A study of Mus musculus with 4 samples.

Results

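The genes described here are those whose level differed by at least 1 on the log2 scale, a 2-fold change, between each of 2 sphere-selected mouse oral cancer sublines and the line it came from. For every gene a first difference was taken as NHRI-HN1 minus M1-2 and a second as NHRI-HN2 minus M2-3, and a gene entered only if it reached log2 8 in at least 1 of the 4 lines. Of 19505 named genes, 7853 reached that level, and 807 of these differed by at least 1 in both pairs. The direction was the same in both pairs for 429 genes (5.46% of the 7853) and opposite for 378 (4.81%).

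M1-2 and M2-3 are parental lines grown from tongue tumors of C57BL/6 mice that had received 4-nitroquinoline 1-oxide (4-NQO), a carcinogen, and arecoline, an areca nut alkaloid, in the drinking water. NHRI-HN1 was derived from M1-2, and NHRI-HN2 from M2-3, by sphere culture in serum-free medium with epidermal growth factor, and all 4 lines were kept afterwards in DMEM with serum. Each line was measured on 1 Affymetrix Clariom S array of total RNA, so every value below is a single measurement without replicate error. Each parent and each subline is 1 cell line, and the sublines were grown on from the spheres that were collected. The deposited values ran from 1.48 to 19.77 with array medians between 4.53 and 4.75. They were read as log2 values, although neither their log base nor their background correction and normalization could be found in the sources used.

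Sphere culture without serum keeps cells that survive and divide without attachment, and it is widely used to enrich carcinoma cells with stem cell properties. Loss of epithelial junction genes together with gain of matrix and mesenchymal genes is known as epithelial-mesenchymal transition. Signalling through ERK, the terminal kinase of the growth factor pathway below EGF receptor and RAS, is read out by a small set of feedback genes, among them the Spry and Spred inhibitors and the Etv transcription factors.

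The labels call all 4 lines oral cancer cells, and the squamous markers differed widely between them. Of 20 measured keratinocyte markers, 17 were at log2 8 or more in M2-3 and 17 in NHRI-HN2, against 9 in M1-2 and 0 in NHRI-HN1, where 19 lay under 5. M1-2 carried Krt14 at 15.38 but Krt5 at 4.68 and Epcam at 3.15, so part of the squamous set was already absent from that parent. Fibroblast markers at 8 or more numbered 10 of 19 in M1-2 against 12 in NHRI-HN1, and 3 in M2-3 against 10 in NHRI-HN2, and skeletal muscle markers 1, 20, 0 and 1 of 28. All 16 immune and all 10 endothelial markers stayed under 8 in each line. In bulk RNA, fewer cells of a type and less RNA per cell cannot be told apart. Whether cells of another type contributed to any value was not tested.

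The pair from M1-2 differed more than the pair from M2-3. NHRI-HN1 was higher than M1-2 by at least 1 for 1533 of the 7853 genes (19.5%) and lower for 1657 (21.1%), whereas NHRI-HN2 was higher than M2-3 for 834 (10.6%) and lower for 597 (7.6%). The standard deviation of the differences across genes was 1.97 in the first pair and 1.05 in the second. Across the 7853 genes the 2 differences were nearly unrelated, with a Pearson r of 0.004 and a Spearman rho of 0.024. The arrays of the 2 pairs are separate samples, but genes are not independent replicates, so no p is given.

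Among the genes that differed in both pairs, 266 (3.39% of those measured at the level) were higher in both sphere-selected lines and 163 (2.08%) were lower in both. Another 106 (1.35%) were higher in NHRI-HN1 and lower in NHRI-HN2, and 272 (3.46%) were lower in NHRI-HN1 and higher in NHRI-HN2. Of the genes higher in NHRI-HN2 than in M2-3, 31.9% were also higher in NHRI-HN1 than in M1-2, against 19.5% of all genes, and 32.6% were lower, against 21.1% of all genes. Read the other way, 17.4% of the genes higher in NHRI-HN1 were also higher in NHRI-HN2, against 10.6% of all genes, and 16.4% of those lower in NHRI-HN1 were higher in NHRI-HN2. Genes higher in NHRI-HN2 thus exceeded their background share on both sides of the first pair. Genes lower in NHRI-HN2 were lower in NHRI-HN1 in 27.3% of cases, against 21.1% of all genes, and higher in 17.8%, against 19.5%.

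**Figure D1:**
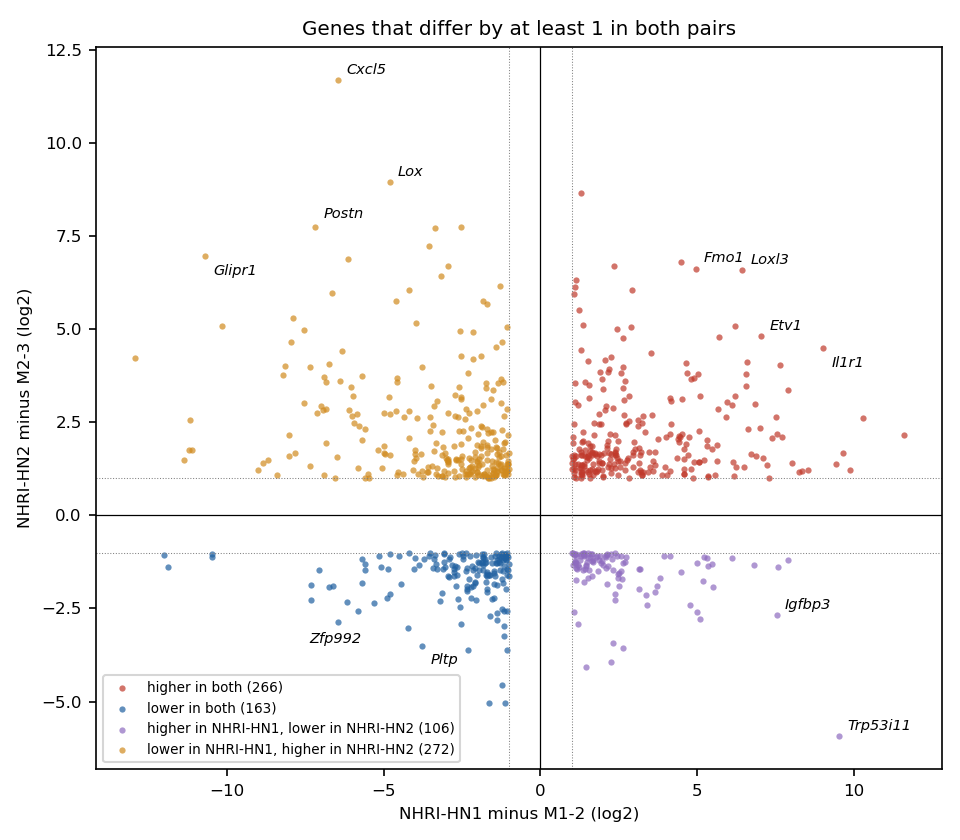
Each point is 1 of the 807 genes that differed by at least 1 in both pairs, placed by the difference NHRI-HN1 minus M1-2 (horizontal axis, log2) and NHRI-HN2 minus M2-3 (vertical axis, log2); dotted lines mark differences of 1. The quadrants for higher in both (266 genes) and for lower in NHRI-HN1 and higher in NHRI-HN2 (272 genes) hold the most points, and 12 of the genes named in the text are labelled.

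A paired limma fit over all 19505 genes, with the pair as a block and 1 residual degree of freedom per gene before moderation, called 0 genes (0.0%) at an adjusted p under 0.05. It gave 697 genes (3.57%) at an unadjusted p under 0.05, of which 405 were higher and 292 lower in the sphere-selected lines. The lowest adjusted p was 0.9856. With 2 pairs, an exact two-sided sign-flip test of a single gene cannot go below p = 0.5. All genes below are therefore described by their values and counts, and a gene counted as higher or lower is one past the difference of 1, not one past a test.

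For 147 of the 266 genes higher in both pairs, both sphere-selected lines lay above both parental lines, and for 99 of the 163 lower genes both lay below. Without regard to size, such separation was found for 624 of the 7853 genes upward (7.95%) and 892 downward (11.4%). The median level of the genes higher in both was 7.53 in M1-2 and 11.14 in NHRI-HN1, and 5.48 in M2-3 and 7.85 in NHRI-HN2. Both sphere-selected lines reached 8 for 115 of them, and both parents lay under 5 for 33. The genes lower in both went from a median of 9.44 to 6.89 in the first pair and from 10.82 to 9.14 in the second, and both parents were at 8 or more for 117. Genes higher in both stood next to another such gene in chromosome order for 32 of 266, where 6.62% of all genes at the level had such a neighbor. For genes lower in both it was 10 of 163 (6.13%), near the 4.11% of all genes that had such a neighbor. Among genes higher in NHRI-HN1 and lower in NHRI-HN2 it was 6 of 106 (5.66%, against 2.67% of all genes), a small count. The reverse orientation had the largest share, 46 of 272 (16.9%, against 6.69% of all genes). Neighbors can be close copies, and how far their probes separate them was not tested.

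The 12 genes with the largest smaller difference among those higher in both had varied roles, and those with matrix or cell surface roles are given first. Loxl3, a lysyl oxidase that crosslinks collagen and elastin, stood at 5.17 in M1-2 and 11.61 in NHRI-HN1, and at 4.42 in M2-3 and 11 in NHRI-HN2. Its differences of 6.44 and 6.58 were nearly equal, both sphere-selected lines lay above both parents, and it had the lowest p of the paired fit (mean difference 6.51 ± 0.53 SE, unadjusted p = 0.0001678, limma adjusted p = 0.9856, n = 2 pairs). That p comes from the same values that ranked the gene first, so it adds no support. Nid2, a basement membrane glycoprotein, was at 4.18 and 10.40 in M1-2 and NHRI-HN1 and at 2.44 and 7.51 in M2-3 and NHRI-HN2. Pcolce, a secreted enhancer of procollagen processing, was at 8.78 and 13.27 in the first pair and at 3.34 and 10.14 in the second. Islr, a membrane-anchored leucine-rich repeat protein of mesenchymal cells, differed by 7.65 and 4.03, and Olfml3, a secreted olfactomedin-like protein, by 6.60 and 4.12.

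The remaining genes of the 12 had other roles. Fmo1, a flavin monooxygenase, was at 8.67 in M1-2 and 13.62 in NHRI-HN1, and 6.39 in M2-3 and 13.01 in NHRI-HN2. Etv1, an ETS transcription factor, was at 5.29, 12.33, 3.06 and 7.87 in the same order, and Il1r1, the signalling receptor for interleukin 1, at 5.23, 14.25, 3.25 and 7.74. For each of the 3, both sphere-selected lines exceeded both parents. Cdk14, a cyclin-dependent kinase, differed by 4.64 and 4.09, Zcchc24, a zinc finger protein, by 5.68 and 4.80, and Osr1, a zinc finger transcription factor of mesenchyme, by 6.55 and 3.80. S100a4, a calcium-binding protein linked to motility, was at 11.16 in M1-2 and 15.82 in NHRI-HN1 but at 5.06 in M2-3 and 8.88 in NHRI-HN2, so that NHRI-HN2 remained below M1-2.

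Genes lower in both were led by Pltp, a lipid transfer protein of plasma lipoproteins. Its level was 9.80 in M1-2 and 6.02 in NHRI-HN1, and 14.26 in M2-3 and 10.76 in NHRI-HN2, with differences of -3.78 and -3.50, and NHRI-HN2 stayed above M1-2. Bcl11a, a zinc finger repressor, was at 6.64 and 2.41 in the first pair and at 8.45 and 5.43 in the second, with both sphere-selected lines below both parents. Slc1a3, a glutamate and aspartate transporter, was at 9.91 and 3.74 and at 9.72 and 7.39. Its 2 parents differed little and both sublines were lower. Metabolic genes among the 12 were Bdh1, a ketone body dehydrogenase (-5.81 and -2.58), Ces2g, a carboxylesterase (-2.57 and -2.47), and Steap3, an iron reductase (-3.19 and -2.31). The serotonin transporter Slc6a4 differed by -2.32 and -3.62, the planar polarity gene Prickle2 by -2.54 and -2.92, and Tmem154, a membrane protein, by -5.30 and -2.35. Zfp992, a zinc finger gene, and Prxl2a, a peroxiredoxin-like protein, differed more in the first pair (-6.45 and -7.31) than in the second (-2.87 and -2.26). Fam83b, an epithelial scaffold protein, was at 13.82 in M2-3 and 11.58 in NHRI-HN2 but only at 4.69 in M1-2 and 2.07 in NHRI-HN1, where both values are dim. Of 6 Fam83 family genes at the level, a family examined only after its values were seen, 3 were lower in both (2.08% of all genes) and all 6 were lower by at least 1 in NHRI-HN2 (7.6% of all genes).

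**Figure D2:**
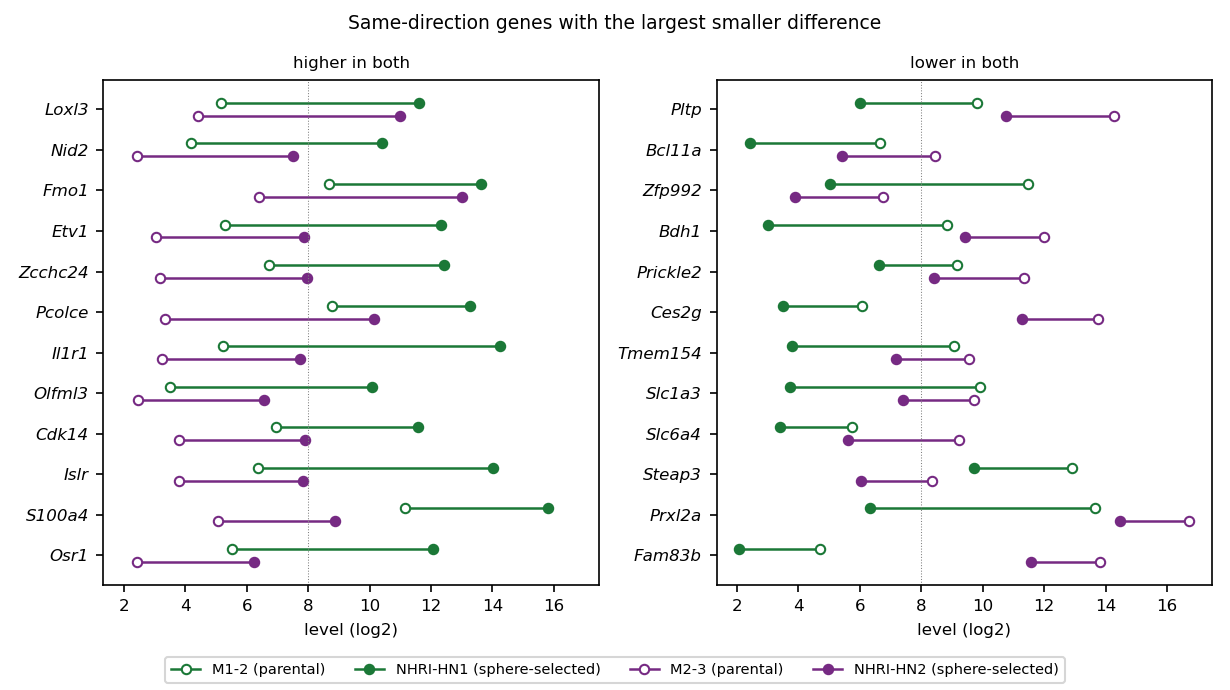
Levels (log2) of the 12 genes higher in both pairs (left) and the 12 lower in both (right) with the largest smaller difference, with a line from each parental line (open circle) to its sphere-selected line (filled circle). Loxl3 and Fmo1 reached similar levels in both sublines, whereas Ces2g, Prxl2a and Fam83b started from far higher levels in M2-3 than in M1-2; the dotted line marks the level of 8.

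At the edge of the rule, Cers4 (2.82 and 1.00) and Jcad (1.00 and 1.59) were just inside on the higher side, and Slc38a1 (1.94 and 0.99) and Eva1b (1.25 and 0.99) just outside. On the lower side Snx33 (-2.49 and -1.0) and Ubl5 (-1.0 and -1.30) were just inside, and Efnb1 (-3.81 and -0.99) and Ttc38 (-3.10 and -0.99) just outside.

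The list of interferon-induced genes held more genes of the same direction than any other list. Interferons are secreted antiviral signals, and many of the genes they induce carry an interferon-stimulated response element (ISRE) in front of their start. Of 44 interferon-induced genes at the level, 20 were higher in both (45.5%, against 3.39% of all genes), 0 were lower in both, 1 was higher in NHRI-HN1 and lower in NHRI-HN2 (Ifi27l2a), and 1 had the reverse pattern (Psmb8). The median difference was 2.88 in the first pair and 1.23 in the second, beside -0.05 and -0.06 over all genes, and 37 of the 44 were higher in both without regard to size (84.1%, against 21.8% of all genes). These counts depend on a list written by hand. Outside it, Ifi204 (4.57 and 1.79) and Ifi211 (3.47 and 1.70) were higher in both, but their relatives Ifi208 (3.66 and -2.05) and Ifi213 (4.13 and -1.09) had opposite directions. Irf1, H2-K1 and H2-D1, counted in other lists below, were lower in NHRI-HN1 and higher in NHRI-HN2.

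The sizes were unequal. Over the 20 genes the first difference ran from 1.48 to 9.88 and the second from 1.18 to 3.20. Bst2, tetherin, which holds budding virus at the cell surface, was at 10.29 in M1-2 and 16.25 in NHRI-HN1 and at 5.82 in M2-3 and 8.85 in NHRI-HN2. Xaf1, an interferon-induced promoter of apoptosis, was at 7.10 and 12.19 and at 3.54 and 6.74. Ifit2, an antiviral RNA-binding protein, was at 7.03 and 9.35 and at 4.62 and 7.50, Gbp3, a guanylate-binding protein, at 5.86 and 10.92 and at 4.16 and 6.43, and the pathway factor Irf9 at 5.88 and 10.40 and at 5.08 and 7.25. All 20 reached 8 in NHRI-HN1, but only 5 did so in NHRI-HN2, where 10 of the 20 lay under 6. With all values under 5 raised to 5, the count higher in both was 10. Both sublines lay above both parents for 14 of the 20, as for 147 of the 266 genes higher in both and 7.95% of all genes. Guanylate-binding proteins and Oas1 genes belong to families of close copies, and how far their probes separate them was not tested.

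The lower side held the genes of cholesterol synthesis. SREBP-2, the product of Srebf2, is the transcription factor that turns these genes on when cell sterol is low, and it binds the sterol regulatory element. Of 19 genes of sterol synthesis and uptake at the level, 8 were lower in both (42.1%, against 2.08% of all genes) and 0 were higher in both. All 19 were lower in NHRI-HN2 than in M2-3 without regard to size, and 18 of 19 were lower in NHRI-HN1 than in M1-2. Lower in both without regard to size were 94.7% of the list and 27.8% of all genes. The medians were -2.91 and -0.87.

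Hmgcs1, which makes the precursor used by HMG-CoA reductase, was at 15.59 in M1-2 and 12.68 in NHRI-HN1, and 15.51 in M2-3 and 13.86 in NHRI-HN2. Nsdhl, a late enzyme of the pathway, was at 14.74, 12.03, 13.12 and 11.77 in that order, Idi1, an isoprenoid isomerase, at 13.61, 10.29, 11.43 and 10.12, and Srebf2 itself at 15.55, 14.36, 15.12 and 13.91. Dhcr7, which makes cholesterol from 7-dehydrocholesterol, differed by -4.51 and -1.10. In all 8 both sublines lay below both parents, as for 99 of the 163 genes lower in both and 11.4% of all genes, and 7 of the 8 were at 8 or more in each line, so that these differences did not rest on dim values. The second difference was never beyond -1.65. Of 14 genes of fatty acid synthesis, 0 were higher in both and 0 lower in both, counts that shares of 3.39% and 2.08% of all genes would also give.

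Promoter windows for the genes, running from 250 bases before to 50 bases after the start, were taken from RefSeq (GRCm38.p6), and 6414 of the 7853 genes had at least 1 window. The ISRE letters, taken as GAAA, any 2 bases and GAAA again and searched on both strands, were found in 25 of 206 genes higher in both (12.1%), in 6 of 125 lower in both (4.8%), and in 3.76% of all genes with a window (3.44% of all 32851 windows of the table). Among the interferon-induced genes higher in both, 12 of 19 with a window held them (63.2%), and these 12 are among the 25. Of all interferon-induced genes at the level, 18 of 34 with a window held them (52.9%), so the letters were frequent in the list as a whole. For the sterol regulatory element the letters TCACNCCA, also on both strands, were found in 3 of 6 sterol genes lower in both that had a window, namely Hmgcs1, Srebf2 and Msmo1, against 4.41% of all genes with a window and 4.36% of all windows. Over all genes lower in both they were found in 6 of 125 (4.8%) and over those higher in both in 13 of 206 (6.31%), and this spelling was chosen after matches had been seen. Both motifs together were found in 46 of the 32851 windows. A match is only a run of letters and was not tested as a binding site.

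The stretches around the matches are shown for the genes of these 2 lists that are described above and hold a match, with the matched letters in capitals. Bst2 lies on the minus strand (chr8:71537563-71537626) and holds 2 overlapping ISRE matches, and Gbp3 lies on the plus strand (chr3:142559975-142560038) and holds 2 overlapping matches that read on the opposite strand. Hmgcs1 (chr13:119690190-119690245) and Srebf2 (chr15:82147083-82147138), both on the plus strand, each hold 1 match of the sterol letters. All 4 stretches end before the start of the transcript.
Bst2: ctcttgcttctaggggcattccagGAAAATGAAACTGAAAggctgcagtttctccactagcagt
Gbp3: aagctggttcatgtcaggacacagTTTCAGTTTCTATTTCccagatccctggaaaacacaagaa
Hmgcs1: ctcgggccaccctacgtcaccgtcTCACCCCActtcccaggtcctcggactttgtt
Srebf2: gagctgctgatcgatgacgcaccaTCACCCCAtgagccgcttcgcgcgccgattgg

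Genes that report ERK activity were split. Of 17 at the level, 6 were higher in both (35.3%, against 3.39% of all genes), 0 were lower in both, and 3 were lower in NHRI-HN1 and higher in NHRI-HN2 (17.6%, against 3.46%). The Etv transcription factors were all among the first set. Etv4 was at 4.51 in M1-2 and 7.62 in NHRI-HN1, and 7.31 in M2-3 and 9.86 in NHRI-HN2, and Etv5 at 9.62, 12.34, 9.58 and 12.07, beside the Etv1 values above. Etv5 was nearly equal in the 2 parents and nearly equal in the 2 sublines. The feedback inhibitors Spry2 (7.88, 13.20, 6.60 and 8.45) and Spred1 (10.58, 12.98, 9.22 and 10.83) were also higher in both, as was Spry1 (5.35 and 1.06). Spry1 was dim in the second pair, at 3.93 in M2-3 and 4.99 in NHRI-HN2. With all values under 5 raised to 5, the count of ERK genes higher in both was 5. In contrast Dusp6, the phosphatase that removes phosphate from ERK, differed by -1.27 and 3.65, the ephrin receptor Epha2 by -3.94 and 2.60, and the early response gene Ier3 by -6.56 and 1.01. The medians of the list were -0.09 and 1.85.

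**Figure D3:**
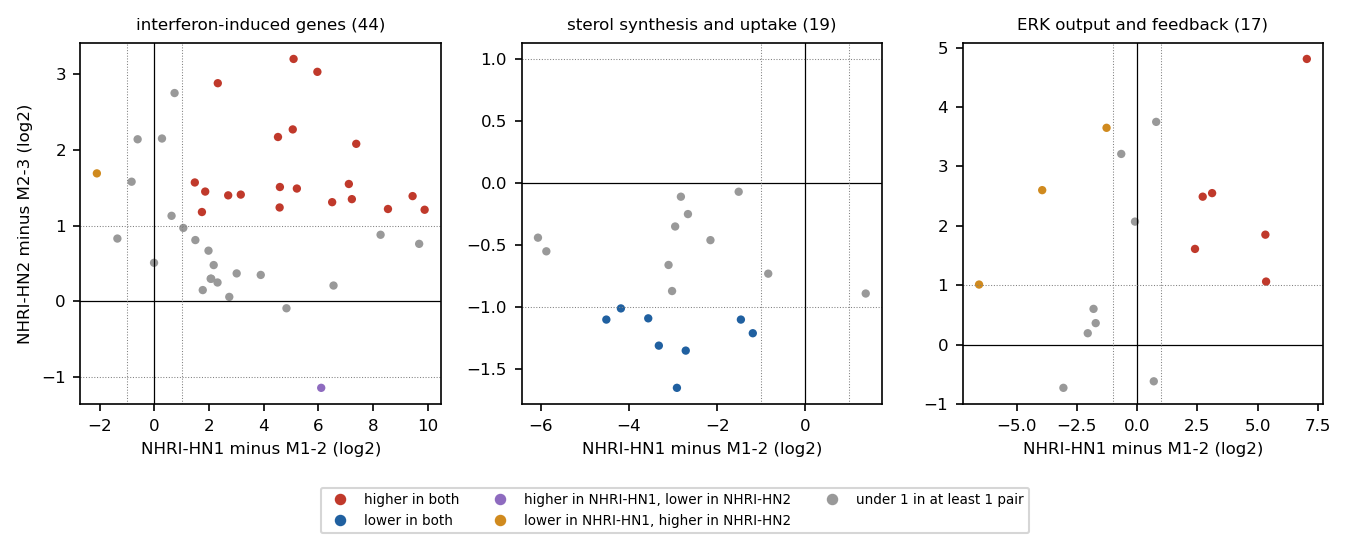
Difference NHRI-HN1 minus M1-2 (horizontal, log2) against NHRI-HN2 minus M2-3 (vertical, log2) for the genes of 3 lists that reached log2 8 in at least 1 line, with axes scaled to each panel. Of 44 interferon-induced genes 20 lay beyond 1 in both pairs upward, of 19 sterol genes 8 lay beyond -1 in both, and the 17 ERK genes divided into 6 higher in both and 3 of opposite direction.

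Matrix genes were also divided. Of 28 matrix glycoproteins and proteoglycans, 5 were higher in both (17.9%, against 3.39% of all genes) and 8 were lower in NHRI-HN1 and higher in NHRI-HN2 (28.6%, against 3.46%). Besides Loxl3 and Nid2, the 5 were Loxl1, a lysyl oxidase (9.25, 12.13, 2.39 and 7.45 in M1-2 and NHRI-HN1, then in M2-3 and NHRI-HN2), the laminin chain Lama4 (7.60, 8.96, 3.96 and 9.07) and the small proteoglycan Dcn (8.93, 13.38, 8.42 and 10.51). Of 12 collagens, Col3a1 (9.66 and 1.67), Col6a1 (1.10 and 3.05) and Col6a3 (4.75 and 2.11) were higher in both (3.39% of all genes). Col3a1 was dim in the second pair, at 2.92 in M2-3 and 4.59 in NHRI-HN2. In contrast, Col1a1 (-3.18 and 6.43) and Col4a2 (-1.63 and 1.08) were lower in NHRI-HN1 and higher in NHRI-HN2 (3.46% of all genes). Of 16 matrix proteases and inhibitors, read against the same shares, the proteases Adamts4, Mmp19, Mmp11 and Mmp16 were higher in both. Their first difference was between 1.78 and 7.28 and their second between 1.00 and 3.98. Mmp16 was dim in the second pair, at 2.44 in M2-3 and 3.44 in NHRI-HN2. The inhibitors Timp1 and Timp3, the protease Adam12 and the urokinase receptor Plaur were lower in NHRI-HN1 and higher in NHRI-HN2, and Timp3 had the most negative first difference of all genes at the level (-12.93, with a second difference of 4.22).

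Among fibroblast markers, 5 of 13 were higher in both (38.5%, against 3.39% of all genes) and 4 were lower in NHRI-HN1 and higher in NHRI-HN2 (30.8%, against 3.46%), and all 13 were higher in NHRI-HN2 than in M2-3 without regard to size. Pdgfrb, a growth factor receptor of mesenchymal cells, was at 9.79 and 10.92 in M1-2 and NHRI-HN1 and at 2.65 and 8.97 in M2-3 and NHRI-HN2. Of 13 transcription factors and cadherins of epithelial-mesenchymal transition, Zeb1 (1.42 and 3.57) and Tcf4 (1.72 and 2.15) were higher in both (3.39% of all genes). The epithelial splicing factor Esrp2 (-2.89 and -1.11) was lower in both (2.08% of all genes), at 5.86 in M1-2 and 2.97 in NHRI-HN1. Most of the others passed 1 in a single pair, among them Snai2 (1.19 and 0.13), Prrx1 (0.02 and 8.43) and Cdh2 (-1.9 and -0.6). Keratinocyte markers were lower in both for 3 of 17 genes (17.6%, against 2.08% of all genes): Krt14 (-11.99 and -1.06), Krt16 (-1.47 and -2.23) and the desmosomal protein Pkp1 (-10.46 and -1.04). NHRI-HN2 still carried Krt14 at 17.70 and Pkp1 at 15.06, whereas NHRI-HN1 had both under 5.

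Several smaller lists held genes of the same direction, most of them beside genes of opposite direction. Of 14 imprinted genes, 4 were higher in both (28.6%, against 3.39% of all genes): Mest (2.18 and 3.93), Sgce (7.53 and 2.18), Peg10 (11.58 and 2.15) and Dcn. Sgce and Peg10 are neighbors on the chromosome. Peg10 was dim in the second pair, at 3.04 in M2-3 and 5.19 in NHRI-HN2. Of 30 guidance genes, 6 had the same direction in both pairs (5.46% of all genes) and 6 opposite directions (4.81% of all genes). The semaphorins Sema4c, Sema3a and Sema5a, their receptor Plxnd1 and the ligand Efnb2 were higher in both, with second differences from 1.15 to 3.07, and Efna3 was lower in both (-1.21 and -2.52). The receptor Epha3 (-7.53 and 3.02) and the semaphorin Sema6a (5.33 and -1.35) were among the 6 opposite. Of 18 Wnt genes, 3 were lower in both (16.7%, against 2.08% of all genes), namely the ligand Wnt4 (-3.13 and -2.09), the receptor Fzd6 (-5.69 and -1.82) and Lgr4, a receptor for R-spondins (-2.16 and -1.48), while Fzd7 was higher in both (1.75 and 1.65), and Porcn (-3.59 and 1.17) and Fzd1 (-1.22 and 1.23) had opposite directions. The EGF receptor inhibitors Errfi1 (3.00 and 1.96) and Lrig1 (2.01 and 1.03) were higher in both, and their relative Lrig3 (-1.71 and -2.06) was lower. The cystine transporter Slc7a11 (2.56 and 3.82) and the serine and folate enzymes Phgdh (1.57 and 1.23) and Mthfd2 (3.12 and 1.16) were the 3 of 35 stress response genes higher in both (8.57%, against 3.39% of all genes), and Xbp1 (-1.69 and 2.33) and Herpud1 (-1.38 and 1.81) had opposite directions.

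**Figure D4:**
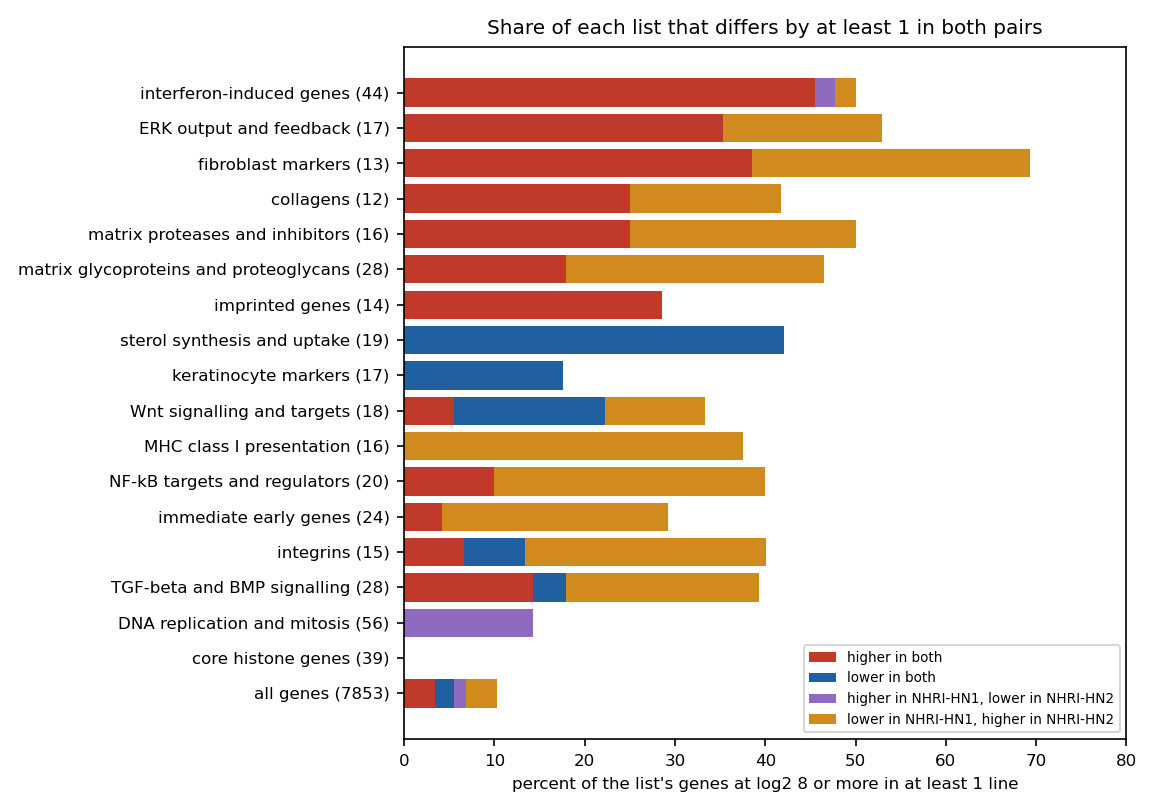
Share of each gene list, in percent of its genes that reached log2 8 in at least 1 line (number in brackets), that differed by at least 1 in both pairs, colored by direction. Interferon-induced genes (45.5% higher in both) and sterol genes (42.1% lower in both) stand beside 3.39% and 2.08% of all genes, and genes of MHC class I presentation differed in opposite directions for 6 of 16.

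The opposite pattern was more frequent in the orientation lower in NHRI-HN1 and higher in NHRI-HN2, with 272 genes against 106. The median level of the 272 genes was 11.17 in M1-2 and 7.76 in NHRI-HN1, and 7.64 in M2-3 and 9.70 in NHRI-HN2. For 166 of them M1-2 and NHRI-HN2 both lay above NHRI-HN1 and M2-3. Postn, periostin, a matrix protein of activated fibroblasts, was at 10.34 in M1-2 and 3.16 in NHRI-HN1, and 6.55 in M2-3 and 14.30 in NHRI-HN2. Lox, the founding lysyl oxidase and thus a relative of Loxl3 and Loxl1, was at 17.91, 13.10, 5.04 and 13.98, and Thbs1, thrombospondin 1, at 17.55, 9.66, 8.59 and 13.90. The neutrophil chemokine Cxcl5 was at 8.52, 2.08, 2.44 and 14.13, a second difference of 11.69 that was the largest of that pair. Bmp4, a growth factor, was at 11.88, 5.75, 3.53 and 10.40. The water channel Aqp5 (-6.65 and 5.97), the complement protease C1s1 (-10.15 and 5.07), the cysteine dioxygenase Cdo1 (-7.54 and 4.97), Glipr1 (-10.70 and 6.96) and the secreted factor Ndnf (-7.95 and 4.65) completed the 10.

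Contractile genes held a larger share of this orientation than any other list. They were gathered only after Acta2 and Tagln had been seen, so their count supports nothing by itself. Of 18 smooth muscle and actin genes at the level, 12 were lower in NHRI-HN1 and higher in NHRI-HN2 (66.7%, against 3.46% of all genes). In NHRI-HN1, 17 of the 18 were lower by at least 1 (21.1% of all genes). Acta2, smooth muscle actin, was at 19.09 in M1-2 and 15.74 in NHRI-HN1 and at 8.30 in M2-3 and 16.02 in NHRI-HN2, so that the 2 sublines ended close together from parents far apart. Tagln, transgelin, was at 16.83, 8.62, 4.15 and 7.91, and Tgfb1i1, a focal adhesion adaptor, at 13.32, 9.53, 3.62 and 7.60.

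Of 16 genes of MHC class I presentation, 0 were higher or lower by at least 1 in both (5.46% of all genes). Lower in NHRI-HN1 and higher in NHRI-HN2 were 6 (37.5%, against 3.46% of all genes), and the medians of the list were -1.36 and 1.11. The heavy chain genes H2-K1 (15.62 and 13.26 in the first pair, 9.66 and 12.52 in the second) and H2-D1 (13.71 and 11.11, 7.32 and 10.76) and the related H2-Q4 (-1.72 and 3.54) were among them. For these 3 genes both sublines lay between the parents, with M1-2 highest and M2-3 lowest. MHC genes are close copies, and how far their probes separate them was not tested.

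Of 24 immediate early genes, 6 were lower in NHRI-HN1 and higher in NHRI-HN2 (3.46% of all genes), among them Ccn1, a secreted matrix protein (-3.55 and 7.23), Zfp36, an mRNA decay factor (-1.45 and 2.02), and Fosl2, an AP-1 subunit (-5.49 and 1.10). Only Fosb (1.37 and 1.99) was higher in both. Of 20 NF-kB targets, 6 were lower in NHRI-HN1 and higher in NHRI-HN2 (30.0%, against 3.46% of all genes), among them the pathway inhibitor Nfkbia (-3.13 and 1.62), Irf1 (-1.87 and 2.37) and the prostaglandin synthase Ptgs2 (-6.02 and 2.67), while Vcam1 (2.35 and 6.68) and Tnfaip2 (2.91 and 6.06) were higher in both (3.39% of all genes). In both lists most genes differed by less than 1 in at least 1 pair. In BMP signalling, Id3 (-7.11 and 2.76) and Id4 (-6.09 and 2.83), which are targets of BMP, ran with Bmp4, whereas the BMP antagonist Grem1 (1.31 and 8.66) and the ligand Tgfb3 (1.97 and 3.66) were higher in both. Of 15 integrins, 4 had this orientation (26.7%, against 3.46% of all genes), including the fibronectin receptor chains Itga5 (-1.36 and 1.41) and Itgb1 (-1.18 and 1.11), and the laminin receptor chain Itga7 (5.03 and 3.79) was higher in both.

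The 106 genes higher in NHRI-HN1 and lower in NHRI-HN2 were led by Trp53i11, a p53-induced gene, at 6.18 in M1-2 and 15.71 in NHRI-HN1, and 13.51 in M2-3 and 7.58 in NHRI-HN2. Igfbp3, which binds insulin-like growth factors, was at 5.02, 12.55, 15.07 and 12.39, and Aldh3a1, an aldehyde dehydrogenase abundant in cornea, at 4.28, 6.54, 14.70 and 10.76. The T-box transcription factors Tbx1 (2.39 and -2.27) and Tbx2 (2.62 and -3.56) shared the pattern. Casq2, a calcium store protein of muscle, differed by 4.99 and -2.60, Chn2, a regulator of RAC, by 5.09 and -2.77, Cdc42ep5, an effector of CDC42, by 4.76 and -2.40, Mylip, a ubiquitin ligase for the LDL receptor, by 3.41 and -2.40, and Plekhg1, a guanine nucleotide exchange factor, by 2.31 and -3.42.

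**Figure D5:**
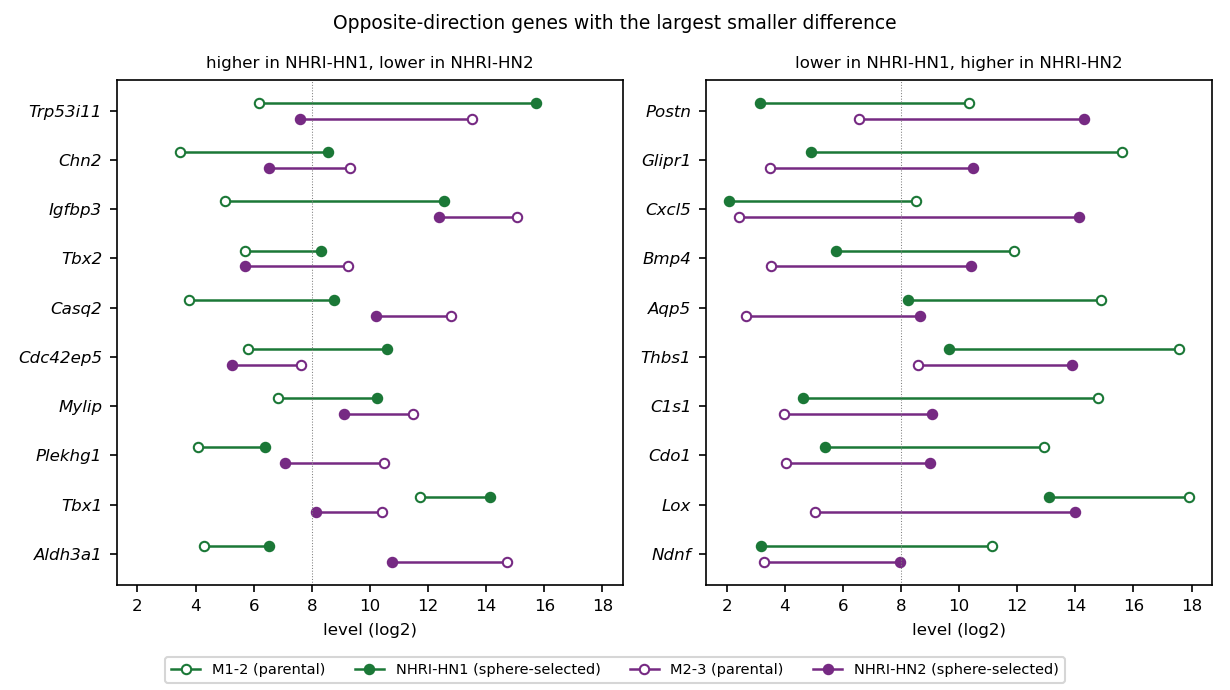
Levels (log2) of the 10 genes with the largest smaller difference that were higher in NHRI-HN1 and lower in NHRI-HN2 (left), or lower in NHRI-HN1 and higher in NHRI-HN2 (right), with a line from each parental line (open circle) to its sphere-selected line (filled circle). Lox and Aqp5 ended at similar levels in the 2 sublines, whereas Cxcl5 was at 2.08 in NHRI-HN1 and 14.13 in NHRI-HN2.

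The list of DNA replication and mitosis genes supplied 8 of these 106. That is not a full count, because mitotic genes outside the list were also among the 106, such as Kif15 (4.47 and -1.52) and Cdca5 (3.16 and -1.45). Of 56 genes of the list at the level, 8 (14.3%, against 1.35% of all genes) were higher in NHRI-HN1 and lower in NHRI-HN2. In the same direction in both were 0 (5.46% of all genes), and the medians were 1.94 and -0.42. The spindle checkpoint kinase Ttk was at 6.53, 9.12, 11.99 and 10.28 in M1-2 and NHRI-HN1, then in M2-3 and NHRI-HN2, and the mitotic kinesin Kif20a at 10.47, 13.05, 13.05 and 11.55. Chek1, a checkpoint kinase, differed by 1.94 and -1.27. In the first pair 48 of the 56 were higher by at least 1 (19.5% of all genes), and in the second 9 were lower by at least 1 (7.6% of all genes). The 39 core histone genes differed by at least 1 in both pairs in 0 cases, beside 807 of all 7853 genes at the level. Their medians were 2.17 and 0.03, and they too are close copies.

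Of the 18 genes named in the study that reached the level, 2 were higher in both (3.39% of all genes), Zeb1 and S100a4. Another 3 were lower in NHRI-HN1 and higher in NHRI-HN2 (3.46% of all genes), namely Acta2, fibronectin Fn1 (-1.06 and 5.05) and Klf4 (-5.47 and 1.00). The mesenchymal filament gene Vim was at 17.12 and 17.99 in M1-2 and NHRI-HN1 and at 6.90 and 14.74 in M2-3 and NHRI-HN2, past 1 in the second pair only. The adhesion gene Cdh1 was at 14.82 and 3.71 in the first pair and at 16.31 and 16.06 in the second. Of the stem cell genes, Sox2 (-8.05 and -0.09) and Cd44 (-3.65 and 0.17) differed in the first pair only, and Prom1 (-0.45 and 0.06), Nanog (-0.41 and -0.54) and Pou5f1 (-0.07 and 0.04) stayed under the level in all 4 lines. Of 11 stemness genes at the level, Alcam, an adhesion molecule (7.91 and 3.37), was the 1 that was higher in both (3.39% of all genes). The lists of oxidative phosphorylation (47 genes), ribosomal proteins (39) and heat shock proteins and chaperones (20) held 0 genes that differed by at least 1 in both pairs. Over all genes at the level it was 807 of 7853, so a count of 0 in lists of this size says little.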

How the data were processed

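Expression in 4 mouse cell lines was profiled from total RNA with Affymetrix Mouse Clariom S arrays, 1 per line. The authors deposited a table of processed values per probe set, made with Partek Genomics Suite version 7 per the labels and read here as log2. Their background correction, normalization and log base could not be found in the sources used, and detection calls were not used.

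Of 22206 probe sets, 19572 had 1 gene symbol and 2634 were unnamed here; the platform annotation was matched to RefSeq by gene ID for 19572. Probe sets of 1 gene were averaged, giving 19505 genes. The 55 genes with several probe sets had a median range between them of 0.46 in the first pair and 0.29 in the second. Genes at log2 8 or more in at least 1 line were classed by differences of at least 1. The sublines were paired with their parents by the labels' derivation, and the deviations of each parent and its subline from their group means correlated at 0.4941 over genes. A paired fit used limma 3.58.1 in R 4.3.3, with trend and Benjamini-Hochberg adjustment. Classes and fit were tested on simulated data.

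Genes named were those with the largest smaller difference (12 per shared direction, 10 per opposite orientation), up to 5 shared and 3 opposite genes per list, genes the study named, cell type markers and genes nearest the threshold. Spry1 and a few other genes beyond these numbers were named after their values were seen, as was the spelling of the sterol motif. The members and lists were chosen with earlier results of these data known. The alternatives tried were quantile normalization, centring, a floor of 5, other level filters, a difference of 2, single pairs, and fits without the block, the trend or 1 array; the closing section gives their effect. An array per line gives no estimate of error between cultures.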

Additional observations from a re-analysis of the deposited data

Results flagged for a closer look

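The 2 pairs moved in opposite directions for 106 genes that were higher in NHRI-HN1 and lower in NHRI-HN2 and for 272 genes that were lower in NHRI-HN1 and higher in NHRI-HN2. With 1 array per line the difference between the pairs was not tested for any of them. The gap between the pairs, taken as NHRI-HN1 minus M1-2 less NHRI-HN2 minus M2-3 on the log2 scale, follows for the 20 genes described in the report.

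In the first orientation the gap was 15.46 for Trp53i11, 10.21 for Igfbp3, 7.86 for Chn2, 7.59 for Casq2 and 7.16 for Cdc42ep5. It was 6.20 for Aldh3a1, 6.18 for Tbx2, 5.81 for Mylip, 5.73 for Plekhg1 and 4.66 for Tbx1. In the second orientation it was -18.13 for Cxcl5, -17.66 for Glipr1, -15.22 for C1s1, -14.93 for Postn and -13.75 for Lox. It was -13.20 for Thbs1, -13.00 for Bmp4, -12.62 for Aqp5, -12.60 for Ndnf and -12.51 for Cdo1.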

How the results depend on the processing

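With 1 array per line, no count has a replicate check. Asking for a difference of at least 2 left 78 genes higher in both, 18 lower in both, 13 higher in NHRI-HN1 and lower in NHRI-HN2, and 82 of the reverse, and raised the higher share of the shared genes from 62.0% to 81.2%. Each pair alone gave 834 to 1533 genes higher and 597 to 1657 lower (without replicate 1 or 2). An alternative chosen after seeing the data, that the lines must not overlap, left 147 higher and 99 lower. With no level filter, 160 genes were higher in NHRI-HN1 and lower in NHRI-HN2. Raising values under 5 to 5 left 212 genes higher in both, 148 lower in both, 96 higher in NHRI-HN1 and lower in NHRI-HN2, and 244 of the reverse. It left 10 interferon-induced genes higher in both, 2 matrix proteases, 2 collagens and 3 guidance genes, and took Slc6a4 (0.73) and Fam83b (0.00) out of the genes lower in both. The smaller difference fell from 4.12 to 1.57 for Olfml3 and from 3.80 to 1.24 for Osr1. Quantile normalization, centring each pair on its median, and level filters at 6 or 10 kept every count they were run on within 1.5 times. Direction was checked for the 24 shared and 20 opposite genes with the largest differences. None of them reversed direction under normalization, centring or the floor, but the floor left Fam83b without a difference in the first pair. The correlation between the pairs ran from -0.02 to 0.004. The limma fit called 0 genes under each alternative, including without the replicate block, where 286 genes had an unadjusted p under 0.05, and over all alternatives that number ran from 226 to 993.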
